A study of Mus musculus with 6 samples.

Results

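The genes described here are Trp53, which encodes p53, Cdkn2a, the locus that signals to p53, and 8 target genes that p53 switches on: Cdkn1a, Mdm2, Ccng1, Bax, Bbc3, Gdf15, Sesn2 and Phlda3. They were chosen by name, for their place in the pathway, with earlier results of these data known. They are 10 of the 45777 genes listed in the data. RNA was sequenced from 6 B16F10 melanoma grafts, 3 grown in the hind footpad and 3 grown in the skin of the flank. B16F10 is a mouse melanoma line of C57BL/6 origin, so all tumors share 1 line. According to the sample labels every host was a Foxn1-/- mouse 8 weeks old, a strain without a thymus and so without most T cells. The series title, however, calls the grafts syngeneic, and the methods of the study name C57BL/6J hosts for such grafts. The study also describes B16F10 grafts at both sites of Foxn1-null mice, so the host strain is uncertain. The study implanted the cells at both sites of a mouse at once, so footpad and flank tumors may share hosts, but the labels do not say which tumors came from which mouse, and p-values measure the spread between these tumors. Total counts ran from 46529649 to 66364366 reads per tumor.

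p53 is a transcription factor that is kept scarce by MDM2, a ubiquitin ligase whose own gene p53 activates. DNA damage kinases, or the ARF protein made from Cdkn2a, release p53 from MDM2, and the freed p53 switches on genes that halt the cell cycle, start apoptosis, repair DNA or change metabolism. Much of this control acts on p53 protein, which RNA levels do not measure.

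p53 binds DNA at a pair of 10-base elements, called decamers below, that may be separated by a short spacer. The published decamer consensus, which reads the same on both strands, was searched in the 300 bases from 250 before to 50 after each RefSeq gene start (GRCm38.p6, the assembly also called mm10), allowing a spacer of up to 3 bases. A pair with at most 1 letter off the consensus was found for 3 of the 10 genes, Cdkn1a, Ccng1 and Bax. For all RefSeq starts of the 10 genes, 3 of 15 windows (20%) held such a pair, against 129 of 32851 windows over all genes (0.393%). These 3 are printed because they carry the pathway's binding element, and the best pairs of Phlda3 and Gdf15 because those are the genes that passed the test between the sites. The decamers are in capitals, and each line gives 20 bases of context to either side, 5′ to 3′ on the strand of the gene.
Cdkn1a, chr17:29090908-29090967, plus strand: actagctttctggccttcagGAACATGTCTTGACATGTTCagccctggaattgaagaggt
Ccng1, chr11:40755442-40755501, minus strand: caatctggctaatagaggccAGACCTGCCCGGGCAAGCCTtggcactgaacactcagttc
Bax, chr7:45467070-45467130, minus strand: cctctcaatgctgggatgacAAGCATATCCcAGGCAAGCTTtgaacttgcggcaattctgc
Phlda3, chr1:135765931-135765992, plus strand: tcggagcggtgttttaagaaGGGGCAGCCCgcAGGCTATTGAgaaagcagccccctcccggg
Gdf15, chr8:70632624-70632684, minus strand: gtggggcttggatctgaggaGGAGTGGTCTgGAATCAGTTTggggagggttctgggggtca
The Cdkn1a pair touches without a spacer and starts 51 bases before the upstream start of that gene, which lies 2790 bases from its downstream start. The Ccng1 pair starts 195 bases and the Bax pair 212 bases before the gene start, and the Bax pair has a spacer of 1 base. The best pair in the Phlda3 window was 5 letters off and that in the Gdf15 window 4 letters off, so neither counts as a match, which says only that these letters are not in this window. A single decamer without any letter off stood in the windows of 5 of the 10 genes (Trp53, Cdkn1a, Mdm2, Ccng1 and Bax), or 5 of 15 windows (33.3%), against 2745 of 32851 windows (8.36%) over all genes. A match is a description of the letters and not a site shown to be bound.

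Levels are given as CPM, the reads of a gene as a share of the reads of the tumor, scaled to 1e6 reads with library sizes scaled by TMM, and differences as log2 fold changes of footpad over flank from edgeR's quasi-likelihood test. A gene counts as called when its Benjamini-Hochberg adjusted p over all 17210 genes tested is below 0.05. The 7 melanocyte markers were present in all 6 tumors, with a summed level of 9795 to 17928 CPM in the footpad and 14344 to 24930 CPM in the flank, and edgeR called 0 of them, with 1 at an unadjusted p below 0.05. Summed levels of host cell markers differed between the sites, and whether graft or host cells made this RNA was not tested. The fibroblast list includes collagen genes, which the study describes as highly expressed by melanoma cells too. The 8 fibroblast markers summed to 1286 to 1689 CPM in the footpad and 58.3 to 227 CPM in the flank, with 6 called higher, and the 6 endothelial markers summed to 277 to 295 CPM and 148 to 187 CPM, with 2 called higher. Macrophage markers summed to 110.6 to 136 CPM in the footpad and 23.4 to 94.2 CPM in the flank, with 1 of 7 called. Footpad replicate 2 stood apart, with 660 CPM of keratinocyte markers and 1003 CPM of skeletal muscle markers, against ranges over the 6 tumors of 0.103 to 660 CPM and 11.02 to 1003 CPM. No marker was at 0 in every tumor, and the part of host RNA in the results below was not tested. In bulk RNA, fewer cells of a type and less RNA per cell cannot be told apart.

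Of the 10 genes, 9 had enough reads to be tested; Cdkn2a did not. Phlda3 was higher in the footpad and Gdf15 lower, and the other 7 were not called. Across all genes tested 4.87% were called, 3.43% higher and 1.44% lower in the footpad. In 4 of the 9 genes the CPM values of the footpad tumors did not overlap those of the flank tumors, higher for Phlda3 and lower for Bax, Bbc3 and Gdf15, against 32.5% of all genes tested (17.5% on the higher and 15% on the lower side). The median log2 fold change of the 9 was -0.16, beside -0.00 over all genes tested, and it was 0.01 without footpad replicate 2.

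**Figure D1:**
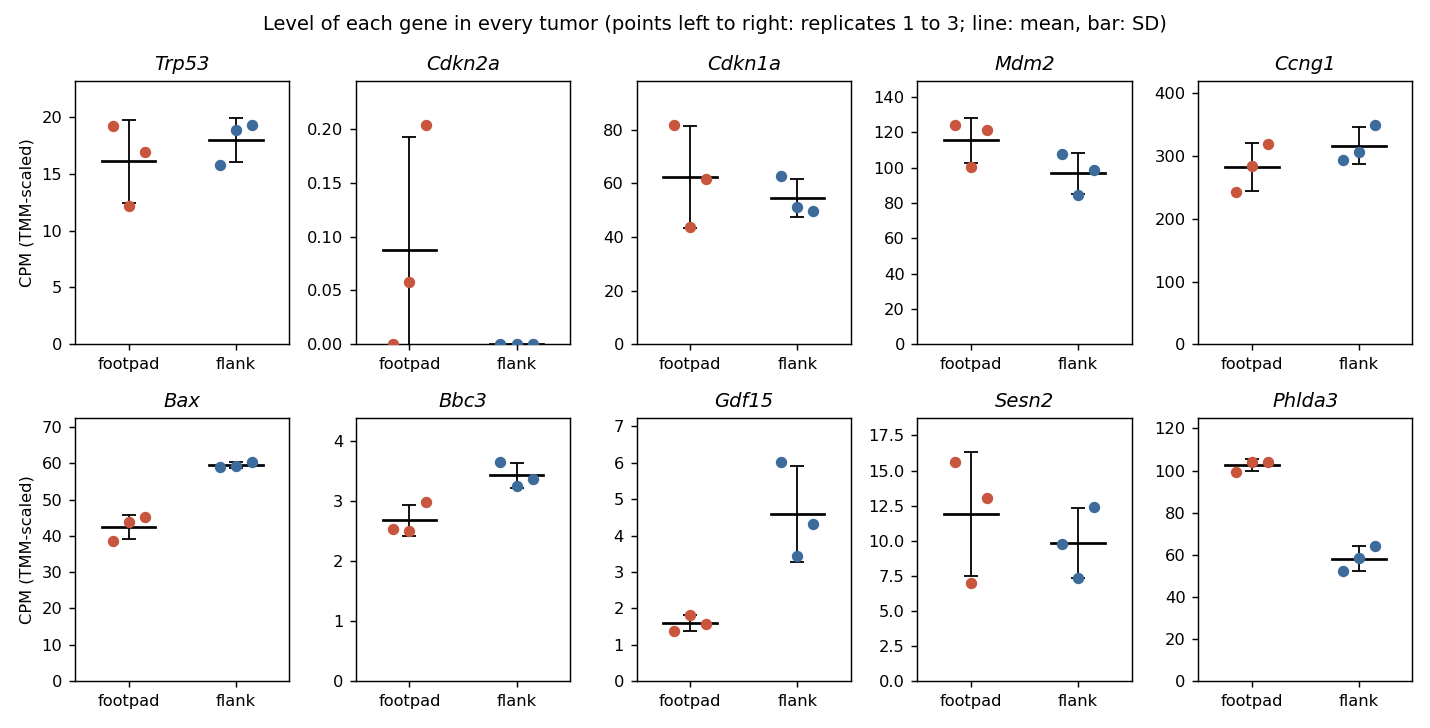
Level of the 10 genes in CPM (vertical axes, each starting at 0) in the 3 footpad and the 3 flank tumors, 1 point per tumor, with the mean as a line and the SD as a bar (the bar of Cdkn2a is truncated at 0). Phlda3 lies at 99.1 to 104 CPM in the footpad and 52.1 to 64.0 CPM in the flank, Gdf15 at 1.37 to 1.82 CPM and 3.44 to 6.03 CPM, while the points of Trp53, Cdkn1a, Mdm2, Ccng1 and Sesn2 overlap.

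Trp53 itself (chromosome 11, 69580348 to 69591873) had levels of 19.2, 12.1 and 16.9 CPM in the 3 footpad tumors, against 15.8, 18.8 and 19.3 CPM in the 3 flank tumors. The ranges overlapped, and footpad replicate 2 was the lowest of the 6. The means were 16.1 ± 3.61 CPM (SD, n = 3) and 18.0 ± 1.92 CPM (SD, n = 3), a log2 fold change of -0.16 (SE 0.21, edgeR adjusted p = 0.661). Without footpad replicate 2 the log2 fold change was 0.01. The processed pseudogene Trp53-ps, whose near copy could take reads from Trp53, had 0 to 2 reads per tumor. A difference in the Trp53 transcript between the sites was not detectable with these 6 tumors.

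Cdkn2a encodes p16INK4a, an inhibitor of CDK4 and CDK6, and, from another first exon in a different reading frame, ARF, the inhibitor of MDM2; a count per gene does not separate them. It had 0, 4 and 10 reads in the footpad tumors and 0 reads in each flank tumor. The floor of 3 reads corresponds to 0.0437 to 0.0673 CPM over the 6 tumors and to 0.0479 to 0.0517 CPM in the flank. A level up to this flank floor could have gone unseen there. B16 lines are known to lack Cdkn2a, as background. Cdkn2a did not pass the filter on low counts, and without that filter edgeR did not call it. Whether the reads came from tumor or host cells was not tested.

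The reads on some genes near Cdkn2a on chromosome 4, of which all but Cdkn2b were picked after their values were seen, are given as a description. Any other genes of this stretch are not given. Mtap, an enzyme of methionine salvage that ends 93.4 kb before Cdkn2a (89137370 to 89181090), had 10862, 22870 and 15280 reads in the footpad tumors and 15667, 18604 and 22304 reads in the flank tumors, and Klhl9, 552 kb before it, had 10573 to 28037 reads over the 6 tumors. Past Cdkn2a (89274473 to 89294619), Cdkn2b, which encodes the related inhibitor p15INK4b (89306289 to 89311032, 11.7 kb away), had 39, 54 and 36 reads in the footpad and 5, 11 and 7 in the flank. Dmrta1, 394 kb from the end of Cdkn2a, had 0 reads in each footpad tumor and 5, 0 and 8 reads in the flank tumors. Among these picked genes and Cdkn2a, Klhl9 and Mtap held 10573 reads or more in every tumor, and Cdkn2a, Cdkn2b and Dmrta1 at most 54. The Mtap level did not differ by more than its error (log2 fold change -0.09, SE 0.18, edgeR adjusted p = 0.793).

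**Figure D2:**
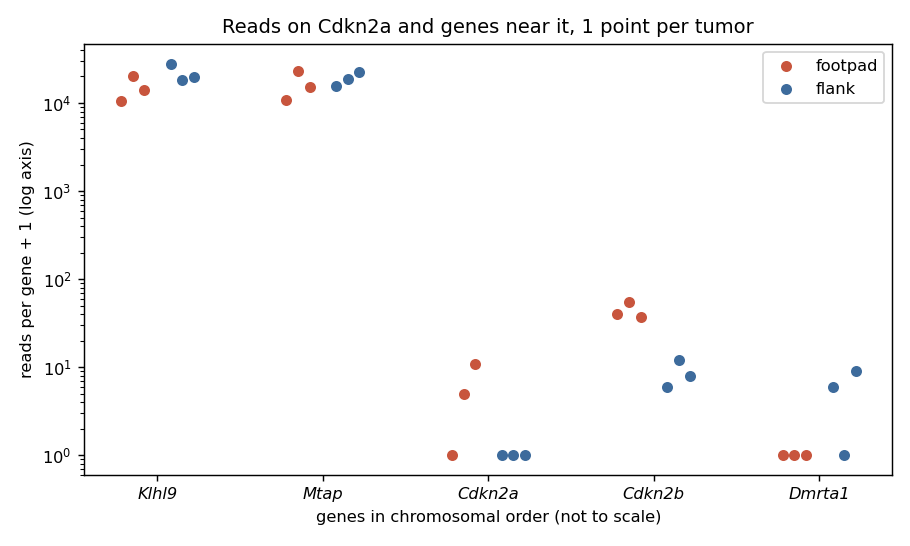
Reads per gene plus 1 (vertical log axis) on Cdkn2a and picked genes near it, drawn in chromosomal order and not to scale. Each tumor is 1 point, with the footpad and flank tumors in different colors. Klhl9 and Mtap have 10573 or more reads in every tumor, Cdkn2a has at most 10, Cdkn2b 5 to 54 and Dmrta1 at most 8.

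Mdm2, the target that closes the feedback loop on p53 (chromosome 10, 117688875 to 117710758), was at 124, 101 and 121 CPM in the footpad and 108, 84.3 and 98.6 CPM in the flank. In CPM the highest flank tumor lay above the lowest footpad tumor. The means, 115 ± 12.9 and 96.8 ± 11.7 CPM (SD, n = 3 each), gave a log2 fold change of 0.25 (SE 0.15, edgeR adjusted p = 0.332), so the difference did not pass the test.

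Cdkn1a encodes p21, the CDK inhibitor through which p53 halts the cell cycle (chromosome 17, 29090979 to 29100722). It was at 81.8, 43.5 and 61.7 CPM in the footpad and at 62.7, 51.1 and 49.7 CPM in the flank. The footpad tumors held both the highest and the lowest value of the 6. The log2 fold change was 0.19 (SE 0.23, edgeR adjusted p = 0.634) between means of 62.3 ± 19.1 and 54.5 ± 7.17 CPM (SD, n = 3 each), and it was -0.05 without footpad replicate 1. Of the genes whose promoter pair was within 1 letter of the consensus, Cdkn1a, Ccng1 and Bax, none was called by edgeR at an adjusted p below 0.05. Ccng1, which encodes cyclin G1, a partner of the phosphatase PP2A in the regulation of MDM2 (chromosome 11, 40748552 to 40755309), was at 243, 284 and 319 CPM in the footpad and at 294, 306 and 349.9 CPM in the flank. The sites overlapped, with a log2 fold change of -0.17 (SE 0.16, edgeR adjusted p = 0.541).

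Bax encodes the BCL2 family protein that opens the outer membrane of mitochondria in apoptosis (chromosome 7, 45461695 to 45466903). Its level was 38.7, 43.7 and 45.1 CPM in the footpad and 59.0, 59.3 and 60.5 CPM in the flank. Every flank tumor was above every footpad tumor. The mean was 42.5 ± 3.39 CPM in the footpad and 59.6 ± 0.785 CPM in the flank (SD, n = 3 each), 1.40-fold higher in the flank. The log2 fold change of -0.49 (SE 0.12) did not pass in edgeR (edgeR adjusted p = 0.0596), while DESeq2 called it (DESeq2 adjusted p = 0.00428); over all alternatives the adjusted p ran from 0.00428 to 0.173. Bbc3, which encodes PUMA, a BH3-only protein that acts upstream of BAX (chromosome 7, 16308398 to 16318334), was low at both sites, at 2.54, 2.51 and 2.98 CPM in the footpad and 3.65, 3.25 and 3.37 CPM in the flank. Its values did not overlap either, but its log2 fold change of -0.36 (SE 0.25, edgeR adjusted p = 0.409) did not pass the test.

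Phlda3 encodes a pleckstrin homology domain protein that competes with AKT for membrane lipids and so dampens AKT (chromosome 1, 135766085 to 135769134). Its level was 99.1, 104.2 and 104.0 CPM in the footpad tumors and 52.1, 58.3 and 64.0 CPM in the flank tumors. The footpad values lay close together, and all were above every flank value. The means of 102 ± 2.91 and 58.1 ± 5.97 CPM (SD, n = 3 each) differed 1.76-fold, a log2 fold change of 0.82 (SE 0.13, edgeR adjusted p = 0.0219). The direction held when any 1 tumor was left out, with log2 fold changes of 0.74 to 0.89, but the call was lost without footpad replicate 1 (edgeR adjusted p = 0.0807), footpad replicate 3 (0.112), flank replicate 2 (0.0548) or flank replicate 3 (0.0705). Over all genes, the fits that lost the call held 31, 0, 553 and 46 called genes, against 838 with all 6 tumors. Fibroblast and endothelial marker sums moved in the same direction as Phlda3, as given above, and their part in it was not tested.

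Gdf15 encodes a secreted cytokine of the TGF-β superfamily that is induced by p53 and also by the integrated stress response (chromosome 8, 70629393 to 70632470). It was at 1.37, 1.82 and 1.57 CPM in the footpad and 6.03, 3.44 and 4.31 CPM in the flank, from 61, 125 and 77 reads and from 350, 201 and 270 reads. The footpad tumors were all below the flank tumors, which spread more widely. The means were 1.59 ± 0.227 and 4.59 ± 1.32 CPM (SD, n = 3 each), 2.89-fold lower in the footpad, with a log2 fold change of -1.53 (SE 0.31, edgeR adjusted p = 0.0400). Leaving out 1 tumor at a time gave -1.71 to -1.29. The call was lost without footpad replicate 1 (edgeR adjusted p = 0.140), footpad replicate 2 (0.0507), footpad replicate 3 (0.146), flank replicate 1 (0.0745) or flank replicate 3 (0.116). Over all genes these fits called 31, 987, 0, 388 and 46. Sesn2, which encodes sestrin 2, an inhibitor of mTORC1 that p53 and ATF4 both induce (chromosome 4, 132492804 to 132510456), was at 15.6, 6.99 and 13.1 CPM in the footpad and 9.74, 7.37 and 12.4 CPM in the flank. Its sites overlapped, with a log2 fold change of 0.28 (SE 0.33, edgeR adjusted p = 0.639).

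**Figure D3:**
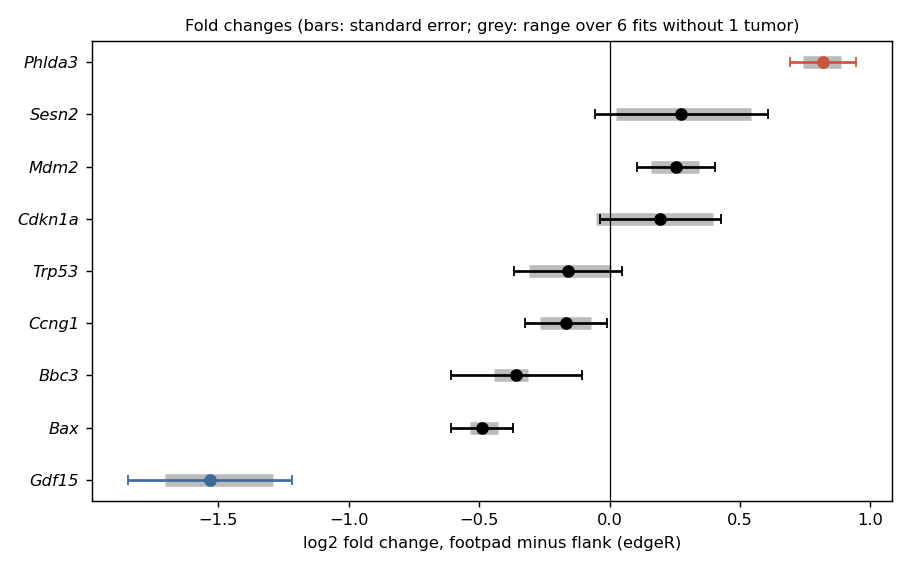
Log2 fold change of footpad over flank (horizontal axis, edgeR) for the 9 genes tested, with the standard error as a bar and, in grey, the range over the 6 fits that each leave out 1 tumor. Phlda3 at 0.82 and Gdf15 at -1.53 are the called genes, and the grey ranges of Cdkn1a and Trp53 cross 0.

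Levels of different genes can be compared only per length, for which the deposited FPKM values were used. Ccng1 had the highest level, 72.4 ± 13.7 FPKM in the footpad and 81.2 ± 10.7 FPKM in the flank (SD, n = 3 each). The second place changed with the site. In the footpad Phlda3 (62.3 ± 6.04 FPKM) stood above Bax (43.7 ± 6.23 FPKM), with tumors at 55.4 to 66.8 FPKM and 36.5 to 47.3 FPKM. In the flank Bax (61.3 ± 5.36 FPKM) stood above Phlda3 (35.5 ± 5.55 FPKM), with tumors at 55.6 to 66.3 FPKM and 29.1 to 38.8 FPKM. Mdm2 at 24.2 to 33.4 FPKM and Cdkn1a at 21.3 to 34.98 FPKM over the 6 tumors could not be put in order. Unlike in CPM, the Mdm2 values of the sites did not overlap in FPKM. They lay at 29.4 to 33.4 FPKM in the footpad and 24.2 to 26.9 FPKM in the flank. On log2(FPKM + 1) limma did not call Mdm2 (limma adjusted p = 0.282). Trp53 followed at 6.26 to 10.1 FPKM, below every value of Cdkn1a and above every value of Sesn2, which lay at 2.47 to 4.82 FPKM. Gdf15 at 0.718 to 3.19 FPKM overlapped both Sesn2 and Bbc3, which lay at 1.21 to 1.64 FPKM, and Cdkn2a came last at 0 to 0.197 FPKM.

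The pattern of Trp53 over the 6 tumors was most like those of Numa1, Ankrd10 and Pnn among 10909 genes of at least 5 CPM on average, by the root mean square difference of centered log2 CPM (0.0625, 0.0676 and 0.0723, against a median of 0.334 over the genes compared). For Cdkn1a the nearest were Tspyl2, Ctdsp1 and Nr1h2 (0.0666, 0.0714 and 0.0759, against a median of 0.404). These are descriptions over 6 tumors that share library size and composition, with no test.

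Among 52 further p53 targets, all of which were tested, 3 were called higher and 1 lower in the footpad, with a median log2 fold change of 0.12. That is 7.69% of the list, beside 4.87% of all genes tested. The tumors of the sites did not overlap for 13 of the 52 on the higher side and 6 on the lower side, where 17.5% and 15% of all genes tested did not. Plk3, a stress-activated polo-like kinase, was at 36.6, 26.7 and 27.9 CPM in the footpad and 13.4, 13.2 and 12.8 CPM in the flank, and it rose by a log2 fold change of 1.21 (SE 0.17, edgeR adjusted p = 0.0157). Kitl, the ligand of the receptor KIT on melanocytes, was at 18.6, 9.98 and 14.0 CPM against 3.10, 6.53 and 3.96 CPM, a log2 fold change of 1.64 (SE 0.35, edgeR adjusted p = 0.0437). Ier5, an immediate early gene, was at 24.0, 10.8 and 18.6 CPM against 2.98, 6.77 and 6.09 CPM, a log2 fold change of 1.75 (SE 0.39, edgeR adjusted p = 0.04997), just inside the threshold. In each of these genes every footpad tumor was above every flank tumor. Psrc1, which encodes a microtubule protein of the mitotic spindle, fell from 30.2, 34.1 and 31.9 CPM in the flank to 14.0, 14.0 and 18.0 CPM in the footpad (log2 fold change -1.06, SE 0.16, edgeR adjusted p = 0.0192). None of the 52 was called without footpad replicate 1, footpad replicate 3 or flank replicate 3. Over all genes these fits called 31, 0 and 46. At an unadjusted edgeR p below 0.05 they gave 16, 13 and 17 of the 52. For all genes these counts were 3138 of 17889, 3289 of 17969 and 3398 of 17876. The call of Kitl was also lost without flank replicate 1 (edgeR adjusted p = 0.0820), and that of Ier5 without flank replicate 1 (0.0784) or flank replicate 2 (0.0760). Kitl is also made by fibroblasts and endothelial cells, whose marker sums were higher in the footpad, and their part in it was not tested.

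**Figure D4:**
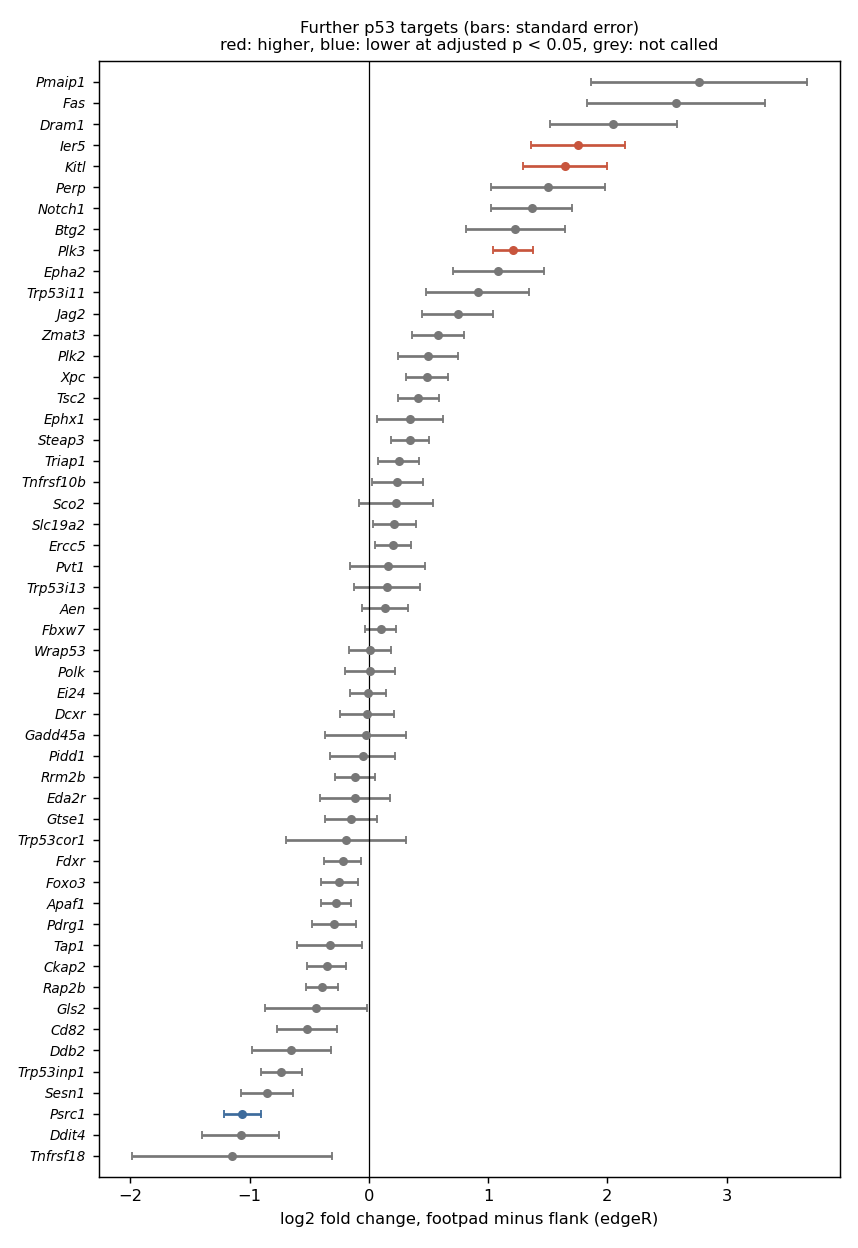
Log2 fold change of footpad over flank (horizontal axis, edgeR) with its standard error for the 52 further p53 targets, sorted by size. Plk3, Kitl and Ier5 are called higher and Psrc1 lower, and the points of the other genes lie on both sides of 0.

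Of the upstream kinases, relatives and modifiers of p53, 21 of 22 were tested and 1 was called, 4.76% beside 4.87% of all genes tested, so the count does not set the list apart. Chek2, a DNA damage kinase that phosphorylates p53, was at 13.0, 19.1 and 18.0 CPM in the footpad and 30.4, 29.2 and 30.4 CPM in the flank, with no overlap (log2 fold change -0.84, SE 0.17, edgeR adjusted p = 0.0404). It was called without footpad replicate 2 and in no other fit that left out 1 tumor, where the adjusted p of the other 5 ran up to 0.139. The median log2 fold change of the list was -0.11. Trp63, a relative of p53 that marks basal keratinocytes and is named here because of its values, was at 0.179, 4.90 and 0.286 CPM in the footpad and 0.0517, 0.137 and 0.0799 CPM in the flank (log2 fold change 4.30, SE 1.34, edgeR adjusted p = 0.102). Its 1 high value was in footpad replicate 2, the tumor with 660 CPM of keratinocyte markers.

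Of 20 genes of the CDK inhibitor and RB axis, 1 was called higher and 1 lower, beside 3.43% and 1.44% of all genes tested. That list also held Mtap, named above as a neighbor of Cdkn2a, which was not called. Cdk4, the kinase that p16INK4a and p15INK4b inhibit, was at 134, 154 and 156 CPM in the footpad and 251, 243 and 264 CPM in the flank, without overlap (log2 fold change -0.77, SE 0.13, edgeR adjusted p = 0.0253). Cdkn2b was at 0.875, 0.787 and 0.735 CPM in the footpad and 0.0862, 0.188 and 0.112 CPM in the flank (log2 fold change 2.61, SE 0.49, edgeR adjusted p = 0.0335), a call from at most 54 reads per tumor. The call of Cdkn2b was lost in each of the 6 fits that left out 1 tumor (edgeR adjusted p 0.0530 to 0.132), and that of Cdk4 in all but those without footpad replicate 2 and flank replicate 1 (0.0398 to 0.119 over the 6 fits). In the BCL2 family and apoptosome, 17 of 18 genes were tested and 1 was called (5.88%, beside 4.87% of all genes tested): Bok, a relative of BAX, was at 7.02, 11.5 and 6.61 CPM in the footpad and 2.09, 3.04 and 3.32 CPM in the flank (log2 fold change 1.57, SE 0.32, edgeR adjusted p = 0.0389). It was not called in any of the 6 fits without 1 tumor (edgeR adjusted p 0.0561 to 0.119). The same 6 fits called 0 to 987 genes in the whole series. The median of that list was 0.19, with Bax among the genes on the lower side.

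Because Gdf15 and Sesn2 also respond to ATF4, 21 genes of the integrated stress response were examined beside them. Their median log2 fold change was -0.50, and -0.62 to -0.24 over the 6 fits without 1 tumor. In the footpad 14 of 21 were fitted lower, as were 8659 of all 17210 genes tested. The tumors of the sites did not overlap for 7 on the lower and 3 on the higher side, beside 15% and 17.5% of all genes tested. The edgeR calls were 4.76% of the list and 4.87% of all genes tested. Only Fgf21, a secreted hormone that ATF4 induces, was called by edgeR, at 0.583, 1.43 and 0.306 CPM in the footpad and 9.74, 5.22 and 3.42 CPM in the flank (log2 fold change -2.97, SE 0.64, edgeR adjusted p = 0.0459). It was called without footpad replicate 2 and in none of the other 5 such fits, with edgeR adjusted p of 0.0268 to 0.160 over the 6. DESeq2 called 10 of the 21, of which 7 were lower in the footpad; it called 15.9% of all genes tested, 6.07% lower.

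Finally, 17 cell cycle genes that are repressed when p53 induces p21 were compared. Of these, 16 were fitted lower in the footpad, as were 8659 of all 17210 genes tested. The median log2 fold change of the list was -0.54, and -0.73 to -0.38 over the 6 fits without 1 tumor. Of the 17, edgeR called 0, with 8 at an unadjusted p below 0.05, all lower. That level was reached by 25.3% of all genes tested, 10.5% lower. DESeq2 called 5, all lower, where it called 15.9% of all genes tested, 6.07% lower. With limma 0 were called on either log2 FPKM scale, with 5 and 6 at an unadjusted p below 0.05. The 3 with the smallest adjusted p were Top2a, Cdk1 and Bub1. Top2a, a topoisomerase of dividing cells, was at 287, 411 and 381 CPM in the footpad and 471, 737 and 696 CPM in the flank, a log2 fold change of -0.82 (SE 0.22, edgeR adjusted p = 0.0760). Cdk1, the mitotic kinase, was at 103, 158 and 133 CPM against 178, 223 and 238 CPM (log2 fold change -0.70, SE 0.20, edgeR adjusted p = 0.0817). Bub1, a spindle checkpoint kinase, was at 76.3, 122 and 87.8 CPM against 140.1, 151 and 165 CPM (log2 fold change -0.67, SE 0.19, edgeR adjusted p = 0.0845), and it was called without footpad replicate 2 (0.0337). In these 3 genes, named for their small p, each flank tumor was above each footpad tumor, and over the list the sites did not overlap for 5 of the 17 genes, all lower, beside 15% of all genes tested.

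**Figure D5:**
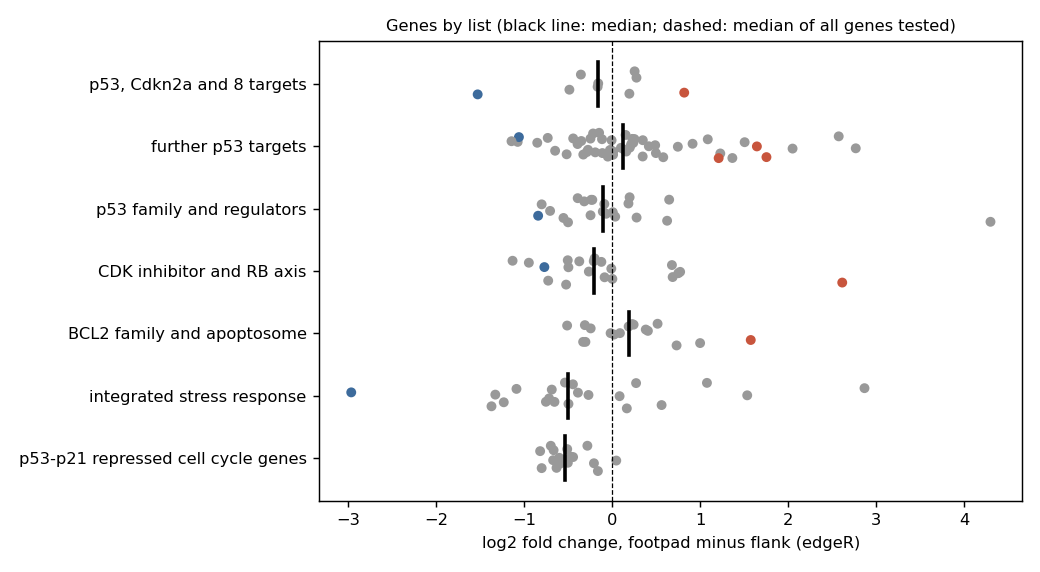
Log2 fold change of footpad over flank (horizontal axis, edgeR) for each tested gene of the p53 genes and the 6 pathway lists, with a black line at the median of each list and a dashed line at the median of all genes tested; red and blue points are called higher and lower. The medians run from -0.54 for the repressed cell cycle genes to 0.19 for the BCL2 family, and most points in every list are grey.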

How the data were processed

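RNA from 3 footpad and 3 flank tumors had been sequenced by the authors from stranded total RNA libraries. Per the study's methods and the submitters' processing notes, reads were checked with FastQC 0.11.7, trimmed with Trimmomatic and aligned with HISAT2 2.1.0 to mm10; the counting program, its strand setting and the criterion of a low-count filter were not given in the sources used here. The authors deposited whole-number read counts per gene and FPKM per gene, the latter normalized for gene length and library size. The counts were tested with edgeR 4.0.16 in R 4.3.3 (TMM scaling, filterByExpr, quasi-likelihood F test, 2 groups, no covariate, two-sided), which left 17210 of 45777 genes; p-values were Benjamini-Hochberg adjusted over all of them. FPKM served for levels between genes and for limma 3.58.1 on log2(FPKM + 1) or log2(FPKM + 0.1); DESeq2 1.42.0 was another alternative, and the remaining ones are given in the closing section. The scripts were tested on simulated data with 200 changed genes. Counting error is smallest for well-covered genes; a floor of 3 counts equals 0.0437 to 0.0673 CPM. Coordinates, strands and sequences come from RefSeq (GRCm38.p6), which matched 45679 gene identifiers and all 10 genes; no RefSeq gene span overlapped any of the 10.

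The 10 genes and the 6 pathway and 8 marker lists were chosen with earlier results of these data known. Named from each pathway list was every gene called, otherwise the 3 with the smallest adjusted p, and for Trp53 and Cdkn1a the 3 genes of the most similar pattern; markers are given as sums. Neutrophil markers summed to 6.86 to 364 CPM in the footpad and 4.76 to 30.1 CPM in the flank, and red cell markers to 3948 to 36235 CPM and 1924 to 30898 CPM; 0 genes of either were called by edgeR, with 6 and 0 at an unadjusted p below 0.05.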

Additional observations from a re-analysis of the deposited data

How the results depend on the processing

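Of 272 values of the named genes under alternatives, 198 kept direction and side of the threshold, 67 lost and 5 gained a call, and 2 turned direction: the log2 fold change of Trp53 was -0.31 to 0.0054 over the fits without 1 tumor (positive without footpad replicate 2) and that of Cdkn1a -0.052 to 0.39 (negative without footpad replicate 1). The cause was not tested. edgeR called 838 genes, DESeq2 2729 (including all 838), and an adjusted p below 0.1 gave 2190; leaving out 1 tumor gave 0 (without footpad replicate 3, with 3289 at an unadjusted p below 0.05) to 987 (without footpad replicate 2), with 31 without footpad replicate 1, 46 without flank replicate 3, 388 without flank replicate 1 and 553 without flank replicate 2. Footpad and flank tumors may share mice. No source used here says that a number marks 1 mouse, so the numbers were not taken as a pairing. Deviations from the site means correlated at r of 0.128, -0.157 and -0.0864 in the same-numbered pairs. Over all pairs of a footpad and a flank tumor r ran from -0.334 to 0.315. With 3 tumors per site these values cannot decide whether tumors shared a mouse. With the replicate block edgeR called 0 genes (3551 at an unadjusted p below 0.05), also 0 in every list, with an adjusted p of 0.0842 for Phlda3 and 0.133 for Gdf15.

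DESeq2 called 7 of 21 p53 regulators tested (edgeR 1), 14 of 52 further targets (4) and 8 of 20 RB axis genes (2). It called 3 of 17 BCL2 family genes (1), 10 of 21 stress response genes (1) and 5 of 17 repressed cell cycle genes (0). Over all genes tested DESeq2 called 15.9%. At an edgeR adjusted p below 0.1 the list counts were 4, 10, 7, 3, 7 and 4, beside 2190 of all 17210 genes tested. A fold change of at least 2 left 1 of the p53 genes, 0 regulators and 1 RB axis gene. Without a filter on low counts and with either limma fit, 0 regulators were called (9, 7 and 7 at an unadjusted p below 0.05); limma on log2(FPKM + 1) called 0 BCL2 family genes (4 at an unadjusted p below 0.05) and either limma fit 2 stress response genes, as did 10 counts or more in every tumor. Upper quartile normalization called 3 further targets, without Ier5. Leaving out 1 tumor gave 0 to 1 of the p53 genes, 0 to 2 regulators, 0 to 8 further targets, 0 to 3 RB axis genes, 0 to 0 BCL2 family genes (3 to 7 at an unadjusted p below 0.05), 0 to 4 stress response genes and 0 to 1 repressed genes. The reads on Cdkn2a and Cdkn2b, at most 54 per tumor, limit what can be said of them.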
